A study of Homo sapiens with 4 samples.

Results

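*SMAD2*, *SMAD3*, *SMAD4*, *SMAD5*, *SMAD6*, *SMAD7*, *SKI* and *SKIL* are signal carriers of the TGF-beta and BMP pathways and feedback genes that act on them. *ID1* and *ID2* are target genes of BMP signalling. These 10 genes were found by symbol among the 10147 genes of the TT-seq table, and all 10 were present. TT-seq measures RNA synthesis, because the RNA isolated is that labelled in 5 min with 500 µM 4-thiouridine (4sU). The cells were human K562 cells, a chronic myelogenous leukemia line, edited so that the endogenous IWS1 protein carries an N-terminal dTAG, and the controls carry the same tag. dIWS1 cells received 500 nM dTAG7, a ligand that marks the tagged protein for degradation, and control cells received the solvent DMSO, both for 1 h, with 2 libraries labelled per group as biological replicates.

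TGF-beta and activin receptors phosphorylate SMAD2 and SMAD3, and BMP receptors phosphorylate SMAD5 and its relatives. These receptor-regulated SMADs join the common partner SMAD4 and enter the nucleus to bind DNA. The pathway restrains itself through the inhibitory SMADs, SMAD6 and SMAD7, and through the corepressors SKI and SKIL, which hold SMAD complexes inactive. *ID1* and *ID2* are classical BMP target genes whose products bind E proteins and keep them off DNA.

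The bases SMAD proteins recognise are shown first for *SMAD6*, *SMAD7* and *SKIL*, the members of the feedback arm with a long gene and an entry in the RefSeq promoter table. Each line gives the 250 bases before the RefSeq gene start of GRCh38.p14, 5′ to 3′ on the gene's own strand. Capitals mark the SMAD box GTCT on either strand (AGAC on the other) and the BMP-type element GGCGCC. Where the box runs directly into its own reverse complement, the palindrome GTCTAGAC results, and it is marked in full.
SMAD6, chr15:66701986-66702235, plus strand: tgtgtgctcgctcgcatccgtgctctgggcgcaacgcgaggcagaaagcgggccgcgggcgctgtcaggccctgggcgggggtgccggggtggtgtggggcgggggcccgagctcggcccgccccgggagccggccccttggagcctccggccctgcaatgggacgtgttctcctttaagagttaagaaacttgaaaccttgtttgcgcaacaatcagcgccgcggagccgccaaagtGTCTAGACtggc
SMAD7, chr18:48950966-48951215, minus strand: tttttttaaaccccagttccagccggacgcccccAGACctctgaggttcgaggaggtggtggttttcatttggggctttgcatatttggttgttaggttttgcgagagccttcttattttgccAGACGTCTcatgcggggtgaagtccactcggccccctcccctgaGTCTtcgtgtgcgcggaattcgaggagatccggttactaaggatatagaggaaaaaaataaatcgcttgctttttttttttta
SKIL, chr3:170357465-170357714, plus strand: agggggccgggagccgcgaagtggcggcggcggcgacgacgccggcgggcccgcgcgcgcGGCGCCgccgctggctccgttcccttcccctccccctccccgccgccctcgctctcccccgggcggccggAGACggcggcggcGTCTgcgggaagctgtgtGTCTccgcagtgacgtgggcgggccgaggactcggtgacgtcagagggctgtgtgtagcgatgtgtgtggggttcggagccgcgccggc

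The palindrome GTCTAGAC was in 1 of the 9 member promoters, that of *SMAD6*, where it begins 12 bases before the gene start, and in 0.182% of the 35116 RefSeq promoters of the same length. GTCT on either strand was in 7 of the 9 member promoters, with 4 occurrences in *SMAD7*, and in 77.5% of all promoters. GGCGCC was in 4 of the 9 (*SMAD2*, *SMAD3*, *SMAD4* and *SKIL*) and in 16.4% of all promoters. It consists of G and C only. In the same order these 4 windows were 78.4, 80.8, 68.4 and 78.4% G and C, and the others 48.0 to 70.4%. The share over all promoters was not matched for base composition. The palindrome also counts as 2 occurrences of GTCT. A match describes the letters of the window and not binding. *SKI* had no entry in the promoter table.

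Nearly all of these genes are long and mostly intronic, so their TT-seq reads sample the whole transcribed unit. In RefSeq coordinates of GRCh38, *SMAD6* (chromosome 15, 66702236 to 66782849, plus strand) has 4 exons in its canonical GENCODE transcript, which cover 4.75% of its span of 80.6 kb. *SMAD3* begins 283 kb further along the same strand (67065602 to 67195169, 9 exons, 130 kb). *SMAD2* (47808957 to 47930872, minus strand, 11 exons, 122 kb), *SMAD7* (48919853 to 48950965, minus strand, 4 exons, 31.1 kb) and *SMAD4* (51030213 to 51085042, plus strand, 12 exons, 54.8 kb) lie within 3.28 Mb of chromosome 18. *SMAD5* is on chromosome 5 (136132845 to 136182733, plus strand, 8 exons, 49.9 kb). *SKI* is on chromosome 1 (2228319 to 2310213, plus strand, 7 exons, 81.9 kb) and *SKIL* on chromosome 3 (170357715 to 170396849, plus strand, 7 exons, 39.1 kb). The ID genes are short. *ID1* (chromosome 20, 31605289 to 31606510, plus strand) has 2 exons in 1222 bp, and *ID2* (chromosome 2, 8682056 to 8684461, plus strand) has 3 exons in 2406 bp.

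The deposited table gives 1 mean per gene, taken over the library columns after scaling with synthetic spike-in RNAs, and whole reads per column were recovered from it. The recovered columns were 1 control column, which entered the mean with the weight of 2 equal columns, and 2 different dIWS1 columns. The control thus enters as a single sample. Which dIWS1 library is replicate 1 is not shown by the values, so these are named column 1 and column 2. The columns held 29588862 (control), 20512882 and 20727515 reads in genes. Of the 9 K562 marker genes examined, among them *GATA1* and *TAL1*, 8 were in the table. Their summed scaled reads were 24563, 18459 and 21068. Of these 8, 5 were called lower (adjusted p under 0.05, limma voom), beside 64.5% of all genes. Their median log2 ratio was −0.41, beside −0.43 for all genes. The ratios ran from the globin gene *HBZ* (−0.91) to *HBG1* (0.14), which is nearly identical to its neighbour *HBG2*. Of 10 markers of other cell types, 0 were in the table, which holds expressed genes only. *IWS1* itself, the tagged gene, had 3684, 2334 and 2427 reads, and its log2 ratio was −0.55 (SE 0.15, adjusted p = 0.000779, limma voom), which measures its synthesis and not the loss of the protein.

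Across the 10134 genes tested, dIWS1 over control had a median log2 ratio of −0.43, with quartiles of −0.60 and −0.26 and 96.4% of values under 0. A gene counts as called where its adjusted p is under 0.05 (limma voom with Benjamini-Hochberg adjustment over all genes), which took in 64.5% of genes as lower and 0.109% as higher. Of the 10 SMAD, SKI and ID genes, 4 were called lower (*SMAD2*, *SMAD3*, *SMAD6* and *SMAD7*), 0 were called higher (also 0 at an unadjusted p under 0.05) and 6 were not called. With libraries scaled by total reads instead of spike-ins, 1 of the 10 was called lower (*SMAD6*) and 4 higher (*SKI*, *SKIL*, *SMAD4* and *SMAD5*), where 11.1% of all genes were called lower and 15.1% higher. The median of the 10 was −0.31, against −0.43 for all genes. They were spread widely, from −0.66 for *SMAD6* to 0.06 for *SKI*. Less RNA per cell and fewer cells behind a library cannot be told apart in these values.

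**Figure D1:**
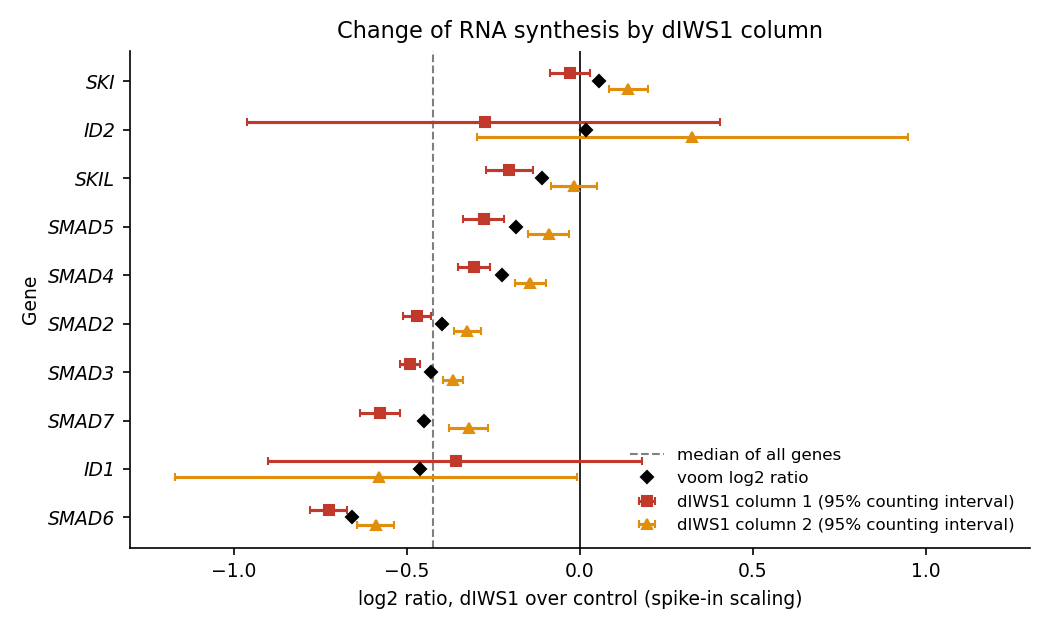
The log2 ratio of dIWS1 over control under the spike-in scaling is plotted for each gene, with squares for dIWS1 column 1, triangles for column 2, diamonds for the voom estimate, bars for the 95% counting interval and a dashed line at the median of all genes. *SMAD6* lies to the left of the dashed line in both columns, *SKI* lies near 0, and the intervals of *ID1* and *ID2* are the widest of the 10.

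Because most genes moved one way, each gene was also placed against the median gene. On that scale 4.78% of all genes were called lower and 3.01% higher. Of the 10 genes, 0 were called lower on this scale (0 at an unadjusted p under 0.05) and 1 higher, *SKI*. *SKIL* passed only an unadjusted p under 0.05 and was not called (adjusted p = 0.192, limma voom). The median gene served as the zero of this scale by construction, so it says nothing of absolute synthesis.

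Synthesis levels were compared per kb of gene span, in spike-in scaled reads. In the control column the order was *SMAD7* (190 reads per kb), *SMAD3* (178), *SMAD4* (155), *SMAD5* (103), *SMAD2* (98.3), *SKIL* (96.1), *SMAD6* (92.4), *SKI* (60.4), *ID1* (55.9) and *ID2* (17.7). *SMAD5*, *SMAD2*, *SKIL* and *SMAD6* form a run in which the 95% counting intervals of neighbours overlap, as do those of *SKI* and *ID1*, and the other neighbours are further apart than these intervals. *SMAD7* stood above 95.2% of the genes with a known span and *ID2* above 21.8%. In column 1 *SMAD7* (128 reads per kb), *SMAD3* (127) and *SMAD4* (126) had overlapping counting intervals, so their order is within counting error. In column 2 *SMAD7* (152) lay above *SMAD4* (141) and *SMAD3* (138) by more than these intervals. *SMAD6*, at 55.9 and 61.4, came below *SKI*, at 59.2 and 66.5, where in the control it stood above. The intervals of these 2 genes just overlapped in column 1 (54.3 to 57.6 and 57.5 to 60.9) and were apart in column 2.

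**Figure D2:**
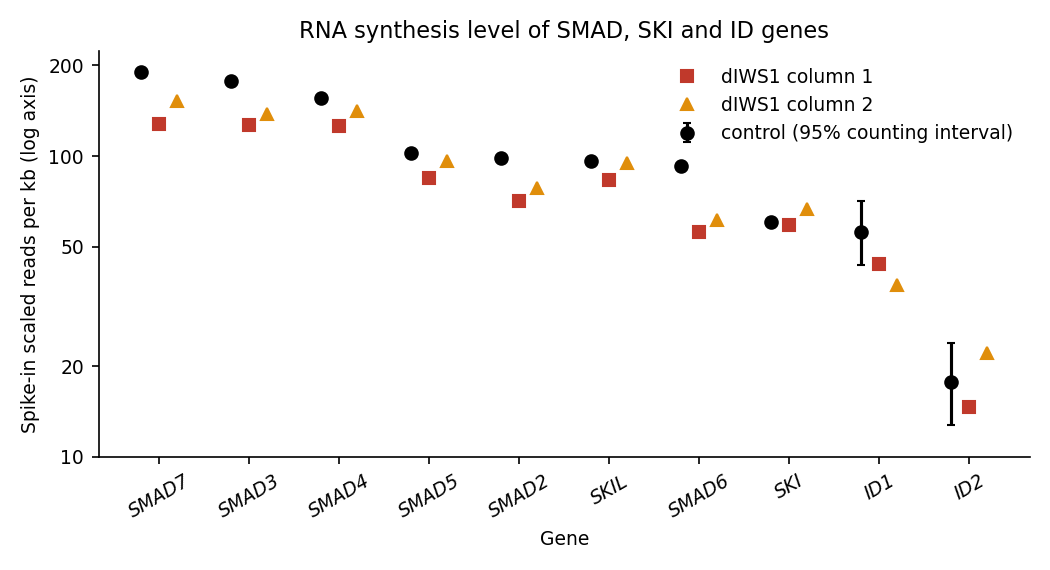
Spike-in scaled reads per kb of gene span (log axis) are shown for each gene, with circles for the control column and its 95% counting interval, squares for dIWS1 column 1 and triangles for column 2. The genes run from *SMAD7* at 190 to *ID2* at 17.7 in the control, and *SKI* is the only long gene whose control value lies between its dIWS1 values.

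The inhibitory SMADs fell under the spike-in scaling. SMAD6 competes in BMP signalling and SMAD7 blocks receptors of both branches and recruits ubiquitin ligases to them. *SMAD6* had 7520 reads in the control, 4475 in column 1 and 4551 in column 2. After scaling, its synthesis was 60.5% of the control in column 1 and 66.5% in column 2, so that both dIWS1 columns were far below the control and close to each other. The log2 ratio was −0.66 (SE 0.15, adjusted p = 6.1e-05, limma voom), the lowest of the 10 genes, and 19.2% of all genes were lower still. With the median gene as the reference the value was −0.23, which did not pass the threshold (adjusted p = 0.362).

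*SMAD7* had 5981 control reads and 3943 and 4361 in the dIWS1 columns, which is 67.0% and 80.1% of the control after scaling. Its log2 ratio was −0.45 (SE 0.15, adjusted p = 0.00615, limma voom), and it was close to the median gene (−0.02 relative to it). Set against each other within a column, *SMAD6* was lower than *SMAD7* by a log2 difference of −0.15 in column 1 (95% counting interval −0.23 to −0.07) and −0.27 in column 2 (−0.35 to −0.19). These intervals, here and for the gene pairs below, cover counting error only. With 2 dIWS1 columns against 1 shared control, no test of such differences between libraries was made.

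Among the receptor-regulated SMADs, *SMAD2* and *SMAD3* moved with the median gene. *SMAD5* had a smaller fitted change but was not called relative to the median gene (0.24, adjusted p = 0.345, limma voom). *SMAD3* was the most deeply covered of the 10, with 23299, 16308 and 16470 reads. Its log2 ratios were −0.49 and −0.37 in columns 1 and 2, and −0.43 in the fit (SE 0.14, adjusted p = 0.00546, limma voom). *SMAD2*, which carries the same signal, had 12094, 8590 and 8793 reads, ratios of −0.47 and −0.32, and −0.40 in the fit (SE 0.15, adjusted p = 0.0127). Both calls lost significance in limma-trend fits with a pseudocount of 0.5 or 5, where the adjusted p was 0.0620 and 0.0594 for *SMAD2* and 0.0720 and 0.0564 for *SMAD3*. Within a column the 2 genes differed by 0.021 and 0.041, with counting intervals that include 0.

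*SMAD5*, the BMP-branch SMAD, had 5163 control reads and 4189 and 4417 in the dIWS1 columns. Both dIWS1 values lay below the control after scaling, at 82.5% and 93.9% of it. The log2 ratio of −0.18 (SE 0.15) was not called (adjusted p = 0.260, limma voom). It lay above that of *SMAD3* by 0.21 in column 1 (95% counting interval 0.15 to 0.28) and 0.28 in column 2 (0.21 to 0.34).

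*SMAD4*, the partner shared by both branches, had 8604, 6845 and 7097 reads. Its scaled synthesis was 80.9% and 90.6% of the control, and the log2 ratio of −0.22 (SE 0.15) was not called (adjusted p = 0.163, limma voom), but was called lower with the control entered 2 times (adjusted p = 0.0456) and, turned to 0.22, higher with total reads (adjusted p = 0.0212). *SMAD3* was lower than *SMAD4* by −0.18 and −0.22 within columns, and *SMAD2* lower by −0.16 and −0.18, with counting intervals that exclude 0 in each case. Relative to the median gene *SMAD4* was at 0.20 and *SMAD5* at 0.24, so both turn from below 0 to above it when the median gene is the reference. Neither was called on that scale.

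The corepressor genes stood at the other end. *SKI* had 4992 reads in the control, 4813 in column 1 and 5011 in column 2, in libraries with fewer reads overall. After scaling it was at 98.0% of the control in column 1 and 110% in column 2, on either side of the control value. The log2 ratio was 0.06 (SE 0.15, adjusted p = 0.740, limma voom), above 97.7% of all genes. With the median gene as the reference *SKI* was called higher, at 0.48 (adjusted p = 0.0244, limma voom), with column 1 at 0.44 and column 2 at 0.51.

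*SKIL* encodes SnoN, the close relative of SKI and a known TGF-beta target. It had 3797, 3243 and 3420 reads, and log2 ratios of −0.20 and −0.02. The fit gave −0.11 (SE 0.15, adjusted p = 0.506, limma voom), while the value against the median gene was 0.32 (adjusted p = 0.192). *SKI* was above *SKIL* by 0.17 in column 1 (95% counting interval 0.09 to 0.26) and 0.16 in column 2 (0.07 to 0.24). The widest gap between long genes of the set was that of *SKI* and *SMAD6*, 0.70 in column 1 (0.62 to 0.77) and 0.73 in column 2 (0.65 to 0.81). The pair was taken as the extremes of these same values, so its intervals are no test, and both columns share 1 control. *SKI* and *SMAD6* have nearly the same span, 81.9 and 80.6 kb.

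The ID genes had few reads. *ID1* had 69 in the control, 53 in column 1 and 42 in column 2, and both dIWS1 columns were below the control, with log2 ratios of −0.36 (95% counting interval −0.90 to 0.18) and −0.58 (−1.17 to −0.01). The fit gave −0.46 (SE 0.24, adjusted p = 0.0844, limma voom), and *ID1* was not called. It was called lower with the control entered 2 times (adjusted p = 0.0168) and in limma-trend with a pseudocount of 5 (adjusted p = 0.0477). *ID2* had 43, 35 and 49 reads and fell on both sides of the control, with ratios of −0.27 (−0.96 to 0.40) and 0.32 (−0.30 to 0.95). Its fitted value was 0.02 (SE 0.28, adjusted p = 0.957, limma voom). In column 1 the intervals of both genes held 0 and also the median of all genes in that column, −0.47, which this depth cannot tell apart.

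**Figure D3:**
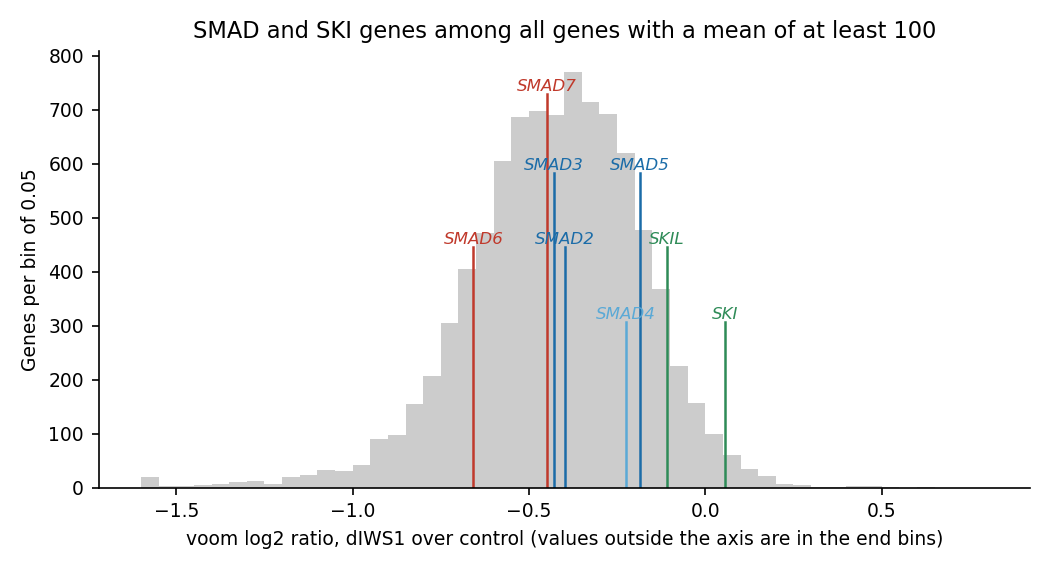
The histogram counts genes with a mean of at least 100 by their voom log2 ratio of dIWS1 over control, and vertical lines mark the 8 SMAD and SKI genes of that depth, coloured by role, with heights that carry no value. *SMAD6* sits in the left flank, *SMAD7*, *SMAD3* and *SMAD2* in the middle, and *SKI* in the right tail, above 98.5% of these genes.

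Gene span was taken into account by setting each gene beside the genes with a mean of at least 100 whose span lay within a factor of 2. For *SMAD6* the 2949 such genes had a median log2 ratio of −0.39 (quartiles −0.56 and −0.25), and 14.9% of them were lower than *SMAD6*. For *SKI* the median of 2915 genes was −0.39, and 98.5% were lower. *SKIL* (median of like genes −0.35) was above 89.6% of them, *SMAD5* (−0.35) above 81.5% and *SMAD4* (−0.35) above 74.9%. *SMAD2* and *SMAD3* were above 59.9% and 56.6% of their like genes, whose medians were −0.46 and −0.46. For *SMAD7* the median was −0.35, and 34.5% of its like genes were lower. Short genes of the span of *ID1* had a median of −0.57 (117 genes), and those of the span of *ID2* −0.52 (414 genes). *ID1* and *ID2* themselves did not reach the mean of 100 asked of these genes.

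**Figure D4:**
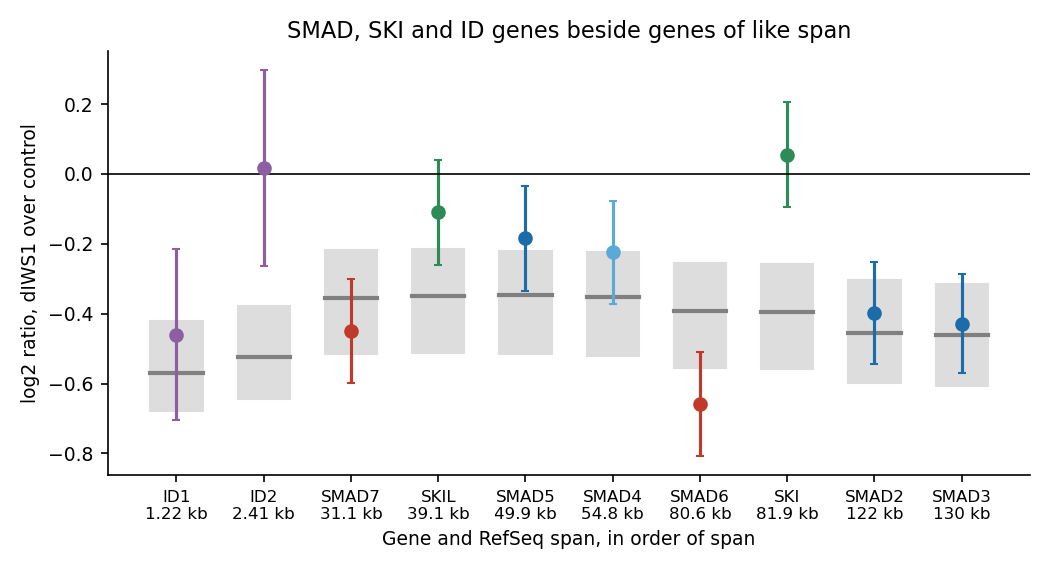
Points give the voom log2 ratio of each gene with its standard error, in order of RefSeq span and coloured by role. Grey boxes and bars give the quartiles and the median of genes with a mean of at least 100 and a span within a factor of 2. *SMAD6* lies below its box, and *SKI*, *SKIL*, *SMAD5* and *ID2* lie above theirs. *ID1* and *ID2*, with means of 58.9 and 43.4, are set against genes of greater depth than their own.

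The rest of the pathway was described with lists of 85 genes in all, of which 50 were in the table, 30 were called lower and 0 higher, with a median of −0.45. For comparison, 64.5% of all genes were called lower. The relatives of the members, *SMAD1*, *SMAD9*, *ID3* and *ID4*, had 2 genes in the table. *SMAD1*, the BMP-branch partner of SMAD5, had 3138, 3003 and 3062 reads and a log2 ratio of 0.03 (SE 0.15, adjusted p = 0.857, limma voom). Against the median gene it was called higher (0.46, adjusted p = 0.0353). *ID3*, named here after its values were seen, had only 21, 9 and 9 reads and a ratio of −1.10 (SE 0.43, adjusted p = 0.0178, limma voom).

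Of the ligand genes, 4 of 20 were in the table and 3 of these were called lower, with a median of −0.50, and 2 had at least 100 control reads. *TGFB1*, the main TGF-beta ligand of blood cells, had 2378, 1620 and 1697 reads (log2 ratio −0.44), and *GDF11*, an activin-type ligand, had 302, 244 and 199 (−0.37). Of the receptor genes, 9 of 13 were present, with 5 called lower and a median of −0.41. They ran from the coreceptor gene *TGFBR3* (4865, 3060 and 3412 reads, log2 ratio −0.51) to the activin receptor gene *ACVR2A* (1375, 1313 and 1367 reads, 0.04), which was called higher relative to the median gene (0.47, adjusted p = 0.0169).

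The regulators of SMAD activity had 12 of 16 genes in the table, with 7 called lower and a median of −0.43. *NEDD4L*, a ubiquitin ligase for activated SMADs, was the lowest with 21135, 10823 and 10670 reads and a log2 ratio of −0.90 (adjusted p = 1.12e-08, limma voom), and it was also called lower relative to the median gene (−0.47, adjusted p = 0.0194). *BAMBI*, a decoy receptor and feedback inhibitor, was the highest with 1054, 1056 and 1137 reads. Its log2 ratio was 0.14 (adjusted p = 0.353), and against the median gene it was called higher (0.56, adjusted p = 0.00142).

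The nuclear partners of SMADs had 11 of 15 genes in the table, of which 7 were called lower (median −0.41), from *NCOR1* at −0.66 to *LEF1* at −0.11. All 3 E protein genes, whose products ID proteins bind, were called lower, with *TCF3* at −0.67 (3291, 1924 and 1979 reads) and *TCF12* at −0.56 (37695, 24089 and 24202 reads). The TGF-beta target genes had 9 of 14 in the table, with 4 called lower and a median of −0.19. *LTBP1*, which anchors latent TGF-beta in the matrix, was at −0.71, and *KLF10*, an early TGF-beta response gene, was at 0.18 (406, 411 and 460 reads, adjusted p = 0.212). Against the median gene *KLF10* was called higher (0.60, adjusted p = 0.000274, limma voom).

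**Figure D5:**
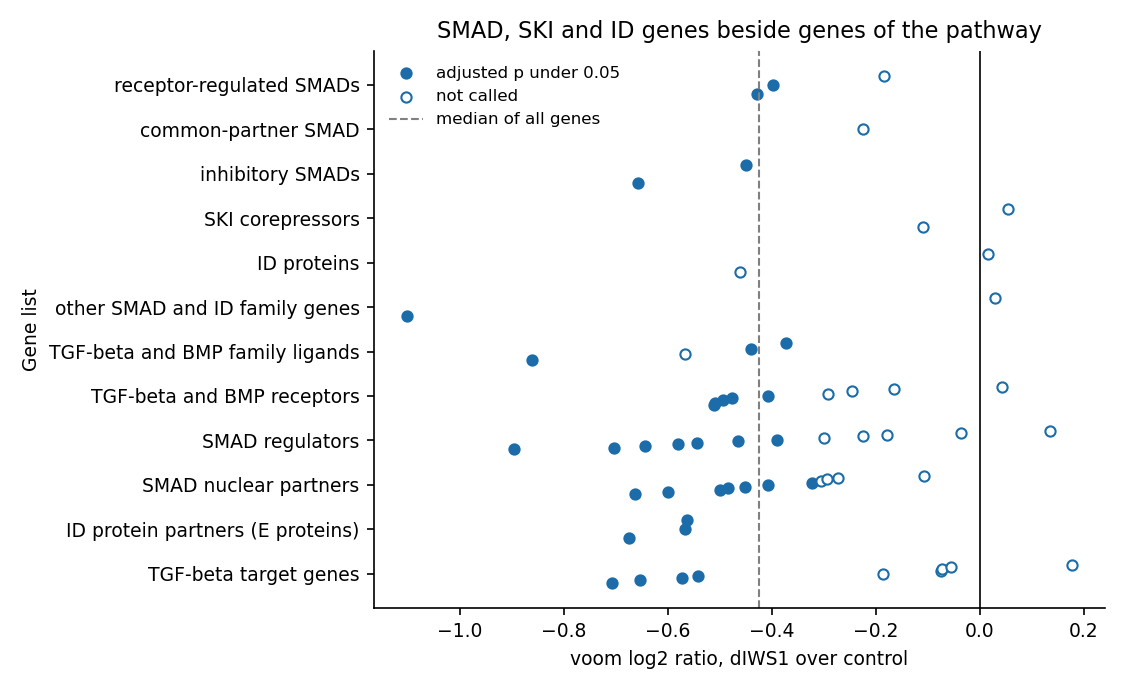
Each point is a gene at its voom log2 ratio of dIWS1 over control, filled where the adjusted p was under 0.05 and open where it was not, with a dashed line at the median of all genes. The SKI corepressors lie to the right of the dashed line and the E proteins to its left, and the receptors and SMAD regulators extend to both sides.

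The genes nearest to *SMAD6* in the log2 ratios of both columns, among 2025 genes with a mean within a factor of 2, were *STAG1*, *ANKRD27* and *NUMB*, at Euclidean distances of 0.0043 to 0.0093. The nearest to *SKI* among 2263 genes were *PLOD2*, *IFRD1* and *NCAPG*, at distances of 0.022 to 0.025. The likeness rests on 2 ratios that share 1 control column.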

How the data were processed

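The authors aligned TT-seq reads with STAR 2.6.0 (version per the labels) to GRCh38 with spike-in sequences, counted read pairs per RefSeq gene by strand, dropped overlapping genes, kept genes over an RPK threshold and ran DESeq2 with spike-in size factors. The deposited mean is a signal, counts over size factors averaged over library columns. The deposited log2 fold change, standard error, statistic and p-values are the authors' own comparison. Of these only the log2 fold change was used, to see which recovered column is its denominator (the control, since the study gives dIWS1 over control) and with what weight, and none is printed.

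Low means were sums of 3 steps. Writing every mean as whole multiples of these steps gave 1 solution for 10134 of 10136 genes with a mean above 0. The control column was counted once, and its spread was assumed to be that of the dIWS1 columns. The design had 1 residual degree of freedom, and the estimated prior degrees of freedom were infinite, so p-values rest on the spread over all genes. Whether the libraries' spread is wholly biological was not tested.

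Reads were fitted with limma 3.58.1 voom (R 4.3.3) under the recovered size factors (1.01, 0.993 and 0.919). Standard errors had a median of 0.14 where the mean was 100 or more. Exact binomial intervals for ratios, exact Poisson intervals for levels and normal intervals for differences between genes cover counting error only. Scripts were tested on simulated data. Members and lists were chosen with earlier results of these data known. In each list that is not of members, genes called higher and the lowest and highest with at least 100 control reads were named. Alternatives were other scalings, filters, tests, thresholds and single columns. Spans, promoters and symbols came from RefSeq GRCh38.p14 and exons from GENCODE release 44. One gene of the K562 marker list is not reported here.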

Additional observations from a re-analysis of the deposited data

How the results depend on the processing

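The calls depend on the scaling. Recentring on the median gene left 484 lower and 305 higher genes, with 0 of the 10 SMAD, SKI and ID genes lower and 1 higher (*SKI*). Scaling by total reads gave 1124 lower and 1526 higher genes, with 1 of the 10 lower (*SMAD6*) and 4 higher (*SKI*, *SKIL*, *SMAD4* and *SMAD5*). Recentring each dIWS1 column on its own median gene, chosen after seeing the data, gave 593 and 398 genes, with 0 and 1 of the 10. By their construction these alternatives move every gene together, and the median of all genes went from −0.43 to 0, 0.02 and −0.01. In the order recentred, total reads and own median, *SMAD2* turned to 0.028, 0.044 and 0.017, *SMAD4* to 0.20, 0.22 and 0.19, *SMAD5* to 0.24, 0.26 and 0.23, and *SKIL* to 0.32, 0.33 and 0.30. *SMAD3* turned to 0.013 with total reads. *SMAD6* stayed below 0 and *SKI* above 0 under each scaling, and *SKI* was above the median gene in either column alone.

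With limma-trend and a pseudocount of 0.5, 2 of the 10 were lower (*SMAD6* and *SMAD7*), beside 55.1% of all genes, and with a pseudocount of 5, 3 of the 10 (also *ID1*), beside 55.5%. With the control entered 2 times, 6 were lower, with *SMAD4* and *ID1* added to the 4, beside 77.8% of all genes. The cause was not tested. The 11 higher genes became 61 with the control entered 2 times, 26 with limma-trend and a pseudocount of 0.5, and 6 or 23 at an adjusted p under 0.01 or 0.1. At these thresholds 3 and 5 of the 10 were lower, without *SMAD2* at 0.01 and with *ID1* at 0.1. Of the 10134 genes tested, 4920 and 7396 were lower there. Means of at least 10 or 100 left the same 4 called lower, beside 65.6% and 68.4% of the genes kept. At a mean of at least 100 only 8 of the 10 were kept, without *ID1* and *ID2*. Each dIWS1 column alone gives values with no test, which stand beside each gene. No paired analysis was possible because the columns carry no replicate number and only 1 control column was recovered. Depth limits *ID1* and *ID2*, with 69 and 43 control reads.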

Other observations

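The palindrome GTCTAGAC of the *SMAD6* promoter was in a RefSeq promoter of 12 genes of the TT-seq table, *SMAD6* included. Their median log2 ratio was −0.34, and 66.7% were called lower, against −0.42 and 66.2% in the 7451 genes that lack it in these windows. This count was made after the values were seen and has no test.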
